A study of Mus musculus with 18 samples.

Results

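The comparison described here sets the step by which cells leave the crypt base in the small intestine (SI) against the same step in the large intestine (LI). Its unit is the library: 12 of the 18 libraries of the series, those of centre and row >3 Lgr5+ cells in SI and in LI with 3 replicates in each of the 4 groups, were selected by their labels, and the other 6 libraries, from border cells, entered the fit only to estimate the spread. For every gene the change from centre to row >3 was taken within each replicate, and the change in the LI was subtracted from that in the SI. All groups came from mice that the labels spell Lgr5_eGFP_Iris_creERT2, on a C57BL/6 background, untreated and 8 to 20 weeks old by the labels. These mice carry GFP in the *Lgr5* locus. For RNA sequencing the study's methods name male and female mice over a wider age range than the labels. They give the background of its mice as mixed or C57BL/6. EPCAM+ cells were sorted by GFP, with high GFP taken as centre (rows at the crypt base), medium as border and low as row >3. The GFP of this allele is patchy, so crypts that silence it are not sampled, and row >3 cells are only those that still hold GFP. The replicates are biological replicates from separate mice by the study's description. Its sequencing methods state neither the SI segment nor whether libraries with the same number share a mouse. Its separate section on crypt isolation for staining names distal ileum and cecum.

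Intestinal epithelium is renewed from Lgr5+ stem cells at the crypt base, which are kept by Wnt signals from Paneth cells and stroma in the SI and from stroma in the LI. Cells displaced upwards lose the Wnt target programme, pass through divisions of the transit-amplifying zone and take up an absorptive or a secretory fate. An absorptive cell builds a brush border of microvilli, held together by actin bundlers, membrane myosins and protocadherins. In both sites the step from the base to row >3 covers the first part of this path, and the question here is which of its changes are common to both sites and which are larger in one of them.

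The 12 libraries held between 15689209 and 31940965 counts (median 23205130). Libraries with the same replicate number deviated together within each site. Their correlations over genes between centre and row >3 were 0.331, 0.516 and 0.539 in the SI and 0.276, 0.334 and 0.512 in the LI. SI replicates 1 and 2 also correlated across numbers (0.176 and 0.229), while the other pairs of unlike number ran from -0.489 to -0.098. The number was used as a block, and whether it stands for a mouse was not tested. The SI libraries of replicate 3 stood apart. For 23 genes chosen as high in the LI and low in SI replicate 1, the median level in the libraries labelled SI replicate 3 was 51.3% of the LI mean in centre and 91.1% in row >3 cells, against 0.511% and 1.26% in SI replicate 2. For 25 genes chosen as high in SI replicates 1 and 2 and low in the LI, the same libraries held 36.4% and 6.52% of the level of those replicates. The labels were kept as given, and whether they hold for these libraries was not tested. Every SI value that includes replicate 3 carries this doubt. The counts of genes called for the difference are therefore also given without the SI libraries of replicate 3, as are the genes named below that lose a call there.

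Gene expression changed more between centre and row >3 in SI than in LI cells, and mostly in the same direction. Over the 12990 genes with a mean of at least 20 normalised counts, the median size of the change was 0.50 on the log2 scale in SI and 0.26 in LI cells. The change was the larger one in the SI for 76.6% of these genes and had the same sign in both sites for 77.4%. Across these genes the 2 changes correlated with a Pearson r of 0.651 and a Spearman rho of 0.686, which describes these libraries only, since genes are not independent replicates. Within each gradient 3309 genes rose (12.4% of the 26717 tested) and 2794 fell (10.5%) in the SI, against 343 (1.28%) and 349 (1.31%) in the LI. In all, 6103 genes were called in the SI and 692 in the LI. These counts were 6201 and 1776 without SI replicate 3, 6368 and 31 without LI replicate 1, and 3518 and 5 without a replicate block. The sorting marker itself moved with this, since *Lgr5* had 5252, 4191 and 2434 normalised counts in SI centre libraries and 169.6, 279.6 and 28.1 in SI row >3 cells, and 2575, 2327 and 2176 in LI centre and 134, 466 and 262 in LI row >3 libraries. Its log2 change of -4.88 ± 0.61 (SE) in SI and -3.06 ± 0.54 in LI cells differed by -1.82 ± 0.81 and was not called for the difference (edgeR adjusted p = 0.380). The part of the unequal fall of the sorting marker in the results below was not tested.

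The difference between the sites was called for 620 genes at an adjusted p under 0.05 (edgeR quasi-likelihood test, Benjamini-Hochberg over all genes tested), 404 above 0 (1.51%) and 216 below 0 (0.808%). Among them were the cell cycle inhibitor gene *Cdkn1a* and 11 brush border genes, which rose more in the SI, and 8 S phase genes and 4 stem cell and Wnt target genes, which fell more there. The genes above 0 had a median log2 change of 1.65 in SI and 0.37 in LI cells, and those below 0 of -1.46 and -0.39. Of the 620 genes, 541 moved the same way in both sites with the larger change in the SI, 2 with the larger change in the LI, and 77 had estimates of opposite sign. None of these 77 was called in both gradients. The SI gradient was called for 616 of the 620 genes and the LI gradient for 134.

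The call rests on the pairing and on few libraries. Without the replicate block 0 genes were called, with 1800 at an unadjusted p under 0.05 against 3589 with it, and DESeq2 with the block called 1477. On the 12 centre and row >3 libraries alone, with the block, 132 genes were called, 93 above 0 and 39 below. Without the SI libraries of replicate 3, 1997 genes were called, 1424 above 0 (5.44% of the 26181 tested in that fit) and 573 below (2.19%), and 857 when the block was dropped as well. Leaving out SI replicate 1 or 2 gave 29 and 497 genes, and LI replicate 1, 2 or 3 gave 175, 16 and 7. Leaving out single SI libraries gave 62, 630 and 1233 (centre 1, 2 and 3) and 65, 372 and 1542 (row >3, 1, 2 and 3). Single LI libraries left out gave 201, 118 and 143 (centre 1, 2 and 3) and 434, 110 and 140 (row >3, 1, 2 and 3). The sign of the estimate was the same in each of these fits for all 620 genes, of which 601 were called again without SI replicate 3, and among the genes named below only *Mal*, *Fa2h*, *Hoxa9* and *Itgb5* lost their call there. Genes named below that were called for the difference without SI replicate 3 but not with it are *Gsdmc3*, *Aldoa*, *Axin2*, *Muc2*, *Dclk1*, *Ephb3*, *Krt20*, *Notch1*, *Hes1*, *Klf4* and *Msmo1*. With library size as the only scaling, which moved the median difference of all genes from 0.02 to -0.05, the split was 340 above and 280 below 0.

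**Figure D1:**
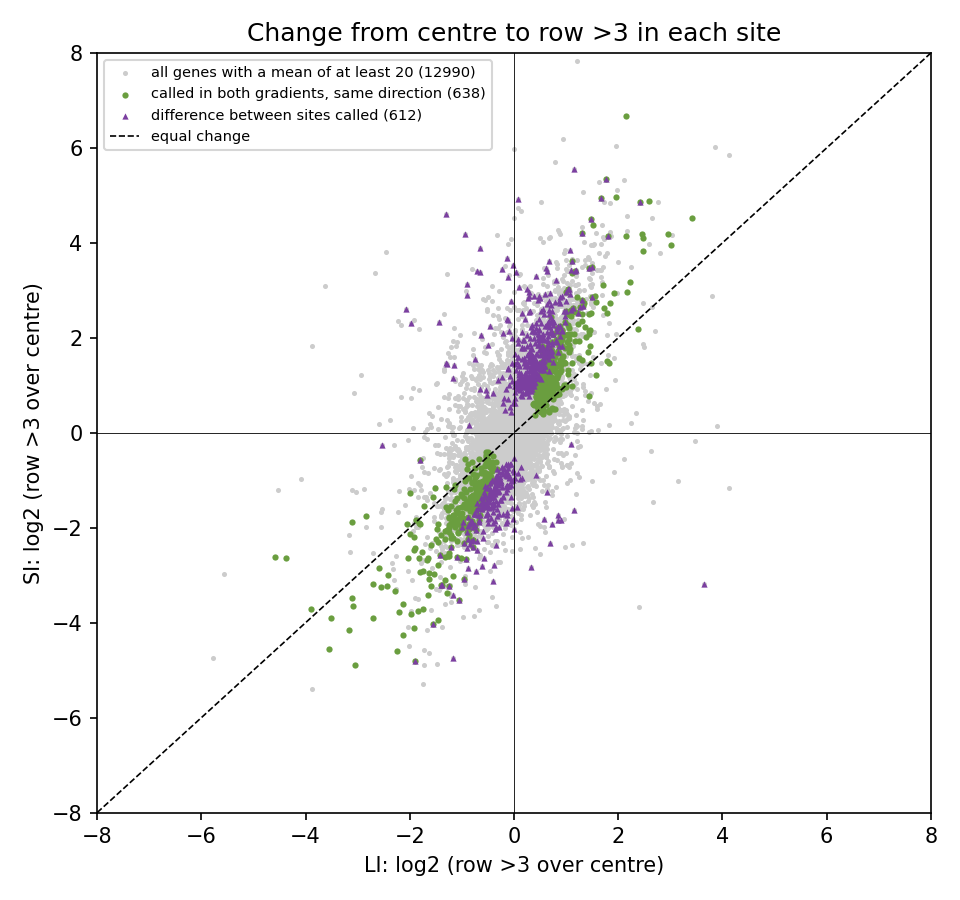
Change from centre to row >3 (log2) of each gene with a mean of at least 20 normalised counts, in the SI (vertical axis) against the LI (horizontal axis); 1 gene lies outside the axes. Genes called for the difference between sites (triangles) lie mostly farther from 0 on the SI axis than the line of equal change, and genes called in both gradients (circles) lie in the 2 quadrants of equal sign.

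The levels of the called genes, border cells included, are given as a description, since the genes were chosen on the same libraries. The median gene above 0 had 410.3 normalised counts in SI centre, 703.2 in border and 1197 in row >3 cells, and 651.4, 698.2 and 851.1 in the LI. For the median gene below 0 the values were 1127, 882.4 and 434.1 in the SI and 867.3, 781.1 and 610.7 in the LI. On these medians the SI began below the LI and ended above it for rising genes, and the reverse held for falling genes.

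The genes named by rule are described one by one, since no list was made for what they have in common. *Cdkn1a*, which encodes the CDK inhibitor p21 (chr17:29090976-29100727, plus strand, GRCm38), had 83.5, 62.6 and 102 normalised counts in SI centre libraries and 1078, 645 and 1235 in SI row >3 cells, in the order of replicates. In the LI it had 372, 251 and 226 in centre libraries and 828, 439.6 and 566 in row >3 cells. All 3 SI centre libraries were below every LI centre library, and the row >3 libraries of the sites overlapped. It rose by 3.62 ± 0.27 (log2, SE, n = 3 pairs) in SI and by 1.11 ± 0.23 in LI cells, a difference of 2.51 ± 0.36 (95% interval 1.77 to 3.25, edgeR adjusted p = 0.00279), and of 2.48 ± 0.33 without SI replicate 3. *Mxd1*, which encodes a MAX partner that opposes MYC, went from 487, 273 and 472 to 3185, 969.9 and 3445 normalised counts in the SI and from 349, 396 and 433 to 697, 479 and 695 in the LI. All SI row >3 libraries were above the LI row >3 libraries, while the centre libraries overlapped. Its difference was 1.85 ± 0.29 (adjusted p = 0.00514).

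*Iqgap2*, a scaffold that binds CDC42 and RAC1 (chr13:95627177-95891922, minus strand), had 3199.9, 2488 and 3873 normalised counts in SI centre libraries and 11798, 7544 and 10094 in SI row >3 cells. Its LI libraries had 4885, 4269 and 4371 in centre libraries and 5521, 4848 and 5673 in row >3 cells. The SI thus started below the LI and ended above it, with no overlap at either level. Its log2 change was 1.64 ± 0.13 in SI and 0.25 ± 0.13 in LI cells, where it was not called (adjusted p = 0.435), with a difference of 1.39 ± 0.19 (adjusted p = 0.00279) and of 1.51 ± 0.13 without SI replicate 3. *Dock8*, an exchange factor for CDC42, rose in both sites, by 2.44 ± 0.19 in SI and 0.70 ± 0.18 in LI cells. *Crip1*, a LIM domain protein, changed by 1.62 in SI and 0.37 in LI cells, and *Dpysl3*, which binds microtubules and actin, by 3.40 and -0.70, the LI value of each not being called.

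*Flna*, the actin crosslinker filamin A (chrX:74223461-74249820, minus strand), fell in the SI from 1083, 1028 and 491 to 240.1, 315 and 158 normalised counts. In the LI it had 739.8, 507 and 455 in centre libraries and 664, 479.8 and 401 in row >3 cells, so that these groups overlapped. The log2 change was -1.86 ± 0.15 in the SI against -0.13 ± 0.14 in the LI, and the difference of -1.73 ± 0.20 had the smallest adjusted p among falling genes named by the rule (0.00140). *Afap1l1*, which binds actin filaments, had a difference of -2.20 ± 0.33, *Gas7*, a membrane-bending F-BAR protein, of -1.51 ± 0.24, the beta-tubulin gene *Tubb5* of -0.98 ± 0.14 and the kinesin gene *Kif12* of -2.48 ± 0.38. *Gas7*, *Tubb5* and *Kif12* fell in both sites, by 1.09, 0.58 and 1.05 in the LI.

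The kinase gene *Fyn* (chr10:39368855-39565381, plus strand), a member of the Src family, moved apart between the sites. It had 402, 429 and 211 normalised counts in SI centre libraries and 80.02, 133 and 90.5 in SI row >3 cells, but 101, 117 and 187 in LI centre and 299.7, 189 and 262 in LI row >3 cells. Every SI replicate went down and every LI replicate went up. The SI change of -1.83 ± 0.26 was called, the LI value of 0.84 ± 0.25 was not (adjusted p = 0.0814, and 0.0427 without SI replicate 3), and their difference was -2.67 ± 0.36 (adjusted p = 0.00279). *Duox2*, an oxidase that makes hydrogen peroxide at the apical surface, also had estimates of opposite sign, 1.18 in SI and -0.22 in LI cells, as did *Sec14l2*, a lipid carrier, with 2.06 and -0.63. Neither LI value was called.

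**Figure D2:**
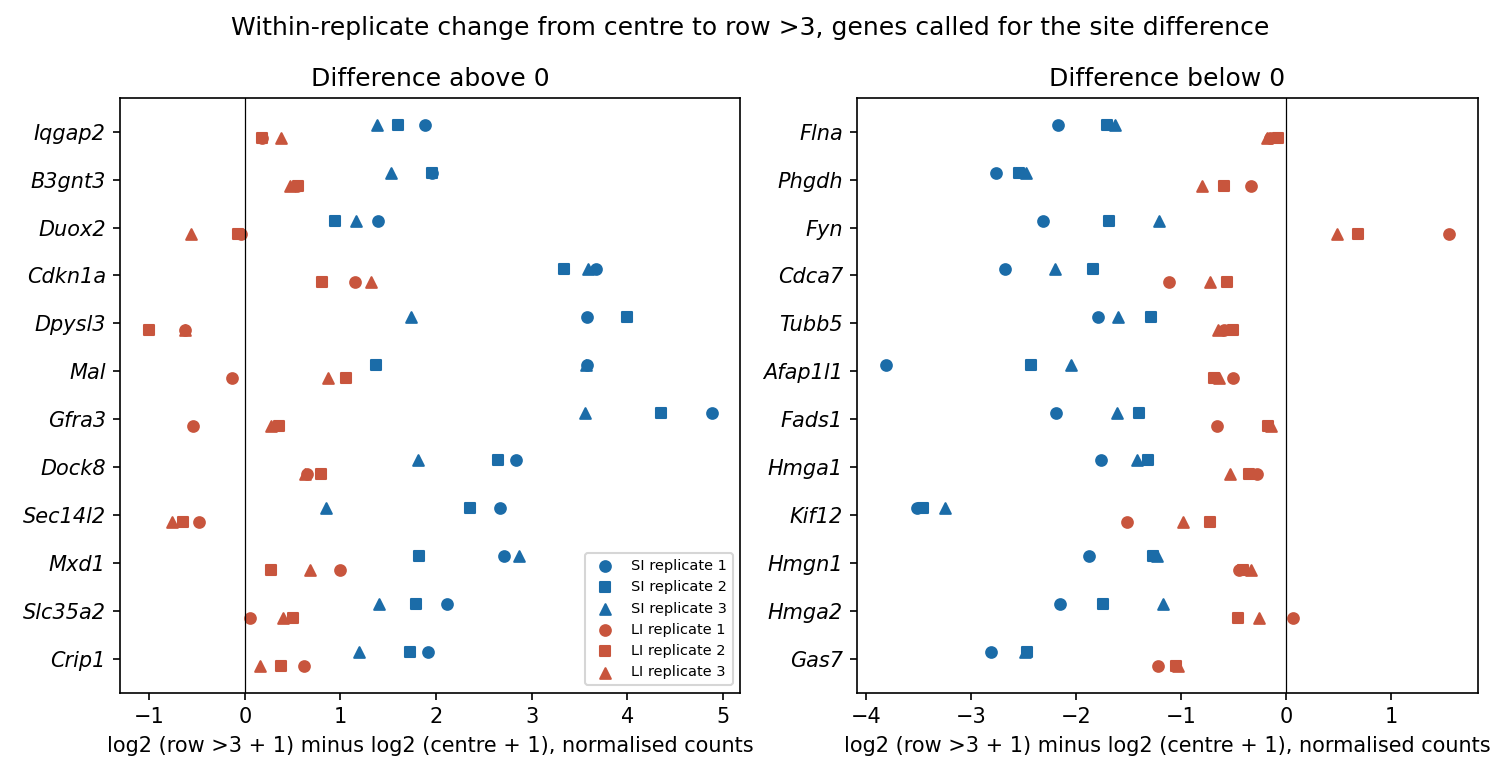
Change from centre to row >3 within each replicate (log2 of the normalised count + 1) of the 12 genes above 0 and the 12 genes below 0 that were named by rule. In each gene the 3 SI pairs lie on 1 side of the 3 LI pairs, which the rule required, and Fyn is above 0 in the 3 LI pairs only.

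The other genes named by this rule follow one by one. *B3gnt3*, which extends mucin-type O-glycans, rose by 1.82 ± 0.13 in SI and 0.53 ± 0.12 in LI cells, and *Slc35a2*, the UDP-galactose carrier of the Golgi, had changes of 1.79 and 0.33. *Gfra3*, a co-receptor for artemin, had 0.810, 3.68 and 0.933 normalised counts in SI centre libraries and 52.7, 94.8 and 21.9 in row >3 cells, while the LI libraries stayed between 44.2 and 70.6 in both groups. *Mal*, a membrane protein of apical transport, was near 0 in SI replicates 1 and 2 (0, 0 and 158 in centre, 10.9, 1.58 and 1879.5 in row >3 cells). Nearly all of its SI counts were in the library pair labelled SI replicate 3. Its difference was 2.96 ± 0.44, and without that pair it was 5.19 ± 3.10 and was not called (edgeR adjusted p = 0.475). *Phgdh*, the first enzyme of serine synthesis (chr3:98313170-98339990, minus strand), fell from 618, 489.9 and 327 to 90.3, 82.9 and 57.8 normalised counts in the SI and went from 318, 472 and 394 to 252, 314 and 225 in the LI. Centre and row >3 libraries did not overlap in either site, and the difference was -2.06 ± 0.25 (adjusted p = 0.00167). *Fads1*, a fatty acid desaturase, differed by -1.44 ± 0.22, and the chromatin architecture genes *Hmga1*, *Hmga2* and *Hmgn1* by -1.12 ± 0.17, -1.50 ± 0.24 and -1.06 ± 0.17. Of the 24 genes named by this rule, 23 were called again without SI replicate 3, all but *Mal*, and 0 were called without the block (lowest adjusted p 0.110). Processed copies may share reads with *Hmga1*, *Hmgn1* and *Tubb5*, and *Hmga1* and *Hmga2* overlap genes on the opposite strand, so their counts are uncertain.

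Genes of DNA replication that were called fell more in the SI. Of 28 S phase genes, 8 were called below 0 and 0 above, against 0.808% and 1.51% of all genes tested, and 5 were called as falling in both sites (12 without SI replicate 3), against 1.2% of all genes (2.56% in that fit). The median log2 change was -1.30 in SI and -0.47 in LI cells, and within replicates the list's median was -1.67, -0.88 and -1.46 in the SI and -0.78, -0.21 and -0.41 in the LI, against medians between 0 and 0.03 over all genes with a mean of at least 20. Without SI replicate 3, 12 of the 28 were called below 0, against 2.19% of all genes. The 8 genes were the helicase subunits *Mcm2*, *Mcm3* and *Mcm7*, the loading factor *Cdc6*, the polymerase subunit *Pola1*, the nucleotide synthesis enzymes *Tyms* and *Rrm1*, and *Slbp*, which binds histone mRNA. *Mcm3* had 3005, 2657 and 1997 normalised counts in SI centre libraries and 914, 1479 and 573 in row >3 cells, and 2311, 2088 and 1925 in LI centre and 1437, 1769.7 and 1733 in LI row >3 libraries. The groups were apart in both sites, although the LI change was not called (adjusted p = 0.278), and the difference was -1.09 ± 0.22 (adjusted p = 0.0149). *Mcm7* differed by -0.92 ± 0.16 and *Pola1* by -0.99 ± 0.21, and *Mcm7* overlaps the genes *Cops6* and *Ap4m1* on the opposite strand. Of 30 G2/M phase genes 0 were called for the difference by edgeR (16 at an unadjusted p under 0.05, and 6 by DESeq2) and 8 fell in both sites (1.2% of all genes), with medians of -0.88 in SI and -0.47 in LI cells, and without SI replicate 3 1 gene was called below 0 (2.19% of all genes) and 16 fell in both sites (2.56%). *Mki67*, which marks cycling cells, changed by -0.81 ± 0.12 in SI and -0.34 ± 0.12 in LI cells.

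Promoters of the S phase genes can be read for binding words of E2F, the transcription factor family that drives them in late G1. The letters TTTCGCG or TTTGGCG, here called the word, were searched on either strand. Other forms of the E2F site were not searched, so a window without the word may still hold one. The windows held 300 bases around gene starts (RefSeq, GRCm38.p6), and 3 of the 8 called genes held the word. These windows are shown because they hold the word, while those of the other 5 called genes do not, each 5′ to 3′ on the strand of its gene (minus in all 3), with the word in capitals (in *Pola1* as its reverse complement): *Mcm7* at chr5:138171834-138172133, *Mcm3* at chr1:20820263-20820562 and *Pola1* at chrX:93632106-93632405.
Mcm7: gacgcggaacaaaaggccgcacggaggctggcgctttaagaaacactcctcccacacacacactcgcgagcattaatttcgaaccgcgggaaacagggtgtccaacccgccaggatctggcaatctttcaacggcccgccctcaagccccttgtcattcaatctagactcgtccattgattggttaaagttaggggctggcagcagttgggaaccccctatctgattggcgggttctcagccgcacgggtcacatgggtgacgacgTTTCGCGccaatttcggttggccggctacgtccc
Mcm3: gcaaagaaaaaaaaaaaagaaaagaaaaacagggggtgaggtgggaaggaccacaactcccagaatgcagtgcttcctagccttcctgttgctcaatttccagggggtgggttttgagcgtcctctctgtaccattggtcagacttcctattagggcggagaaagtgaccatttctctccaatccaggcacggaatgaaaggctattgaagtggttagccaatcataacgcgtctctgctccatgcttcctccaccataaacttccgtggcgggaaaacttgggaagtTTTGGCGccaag
Pola1: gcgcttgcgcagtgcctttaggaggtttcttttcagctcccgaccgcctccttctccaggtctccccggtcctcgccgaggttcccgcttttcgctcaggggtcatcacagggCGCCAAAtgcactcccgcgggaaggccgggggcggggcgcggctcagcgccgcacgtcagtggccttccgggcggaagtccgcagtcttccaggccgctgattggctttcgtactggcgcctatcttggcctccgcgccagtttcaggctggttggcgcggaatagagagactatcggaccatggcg
The word was found in 8.11% of the 222 windows of genes called below 0 and in 2.99% of the 401 windows of genes called above 0. It was in 8.47% of the 295 windows of genes that fell in both sites and in 3.71% of the 350 of genes that rose in both. Over all 32851 windows the share was 2.37%, and over the windows of genes with a group mean of at least 20 normalised counts it was 4.06%. The TCF/LEF core CTTTGA, on either strand, was in 15.3%, 9.73%, 14.6% and 9.43% of the same 4 sets of windows, in that order, against 16.003% of all windows and 12.2% of those of genes with a group mean of at least 20. A match describes the sequence and does not show binding.

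Stem cell and Wnt target genes fell in both sites, for the most part. Of 27, 18 were called as falling in both and 4 were called for the difference, all below 0, against 1.2% and 0.808% of all genes tested, with a median log2 change of -2.09 in SI and -0.92 in LI cells. *Lgr5* belongs to this list and to the sort, so its fall is no result. The 4 genes were *Cdca7*, a chromatin factor, *Cdk6*, the G1 kinase, *Tcf7*, a Wnt effector, and *Rnf43*, the ligase that removes Wnt receptors. *Cdca7* (chr2:72476159-72486893, plus strand) had 5789, 5246 and 2485 normalised counts in SI centre libraries and 903, 1463 and 540.1 in row >3 cells, and 2456, 2064 and 2124 in LI centre and 1137, 1399.96 and 1284 in LI row >3 libraries. Both sites were apart from centre to row >3, and SI replicate 3 was near the level of the LI in centre cells. Its log2 change was -2.25 ± 0.15 in SI and -0.79 ± 0.14 in LI cells, a difference of -1.46 ± 0.20 (adjusted p = 0.00279). *Rnf43* differed by -1.19 ± 0.25, *Tcf7* by -1.33 ± 0.28 and *Cdk6* by -1.19 ± 0.23. *Axin2* differed by -1.30 ± 0.39 and was not called (adjusted p = 0.136), but it was without SI replicate 3 (adjusted p = 6.21e-04), where 12 of the 27 were called below 0, against 2.19% of all genes. For *Smoc2* the difference was -0.25 ± 0.57 with an interval from -1.55 to 1.04, and 0.23 ± 0.24 without SI replicate 3.

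Of 21 brush border genes 17 were called higher in the SI and 3 in the LI, against 12.4% and 1.28% of all genes tested, and 1, *Eps8*, named after its values were seen, was called lower in the LI. For the difference 11 were called above 0 and 0 below, against 1.51% and 0.808% of all genes, with a median log2 change of 1.16 in SI and 0.28 in LI cells, and 15 were called above 0 without SI replicate 3, against 5.44% of all genes in that fit. The 11 genes include those of microvillar actin bundlers and linkers (*Vil1*, *Espn*, *Ezr*, *Slc9a3r1*) and of membrane myosins (*Myo1a*, *Myo1d*, *Myo15b*). The others are the protocadherin gene *Cdhr2*, whose product joins microvilli, *Tmigd1*, and *Actn4* and *Plec*. These last code for cytoskeletal linkers that are not particular to microvilli. *Cdhr2* (chr13:54701461-54736662, plus strand) had 1674, 1447 and 3408 normalised counts in SI centre libraries and 7665, 4009.7 and 8286 in row >3 cells. In the LI it had 2898, 2487 and 2683 in centre and 4259, 3406 and 4077 in row >3 libraries, also without overlap between the levels. The rise was 1.66 ± 0.13 in SI and 0.54 ± 0.13 in LI cells, and the difference 1.11 ± 0.18 (adjusted p = 0.00532). *Myo1a* (chr10:127705170-127720940, plus strand) went from 3351, 3245 and 5424 to 20765, 13637 and 14145 in the SI and from 4944, 4319 and 4578 to 8052, 5718 and 6366 in the LI, a difference of 1.52 ± 0.26. SI and LI centre libraries overlapped, and every SI row >3 library was above all LI libraries. *Vil1* and *Myo15b* overlap *Usp37* and *Recql5* on the opposite strand.

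**Figure D3:**
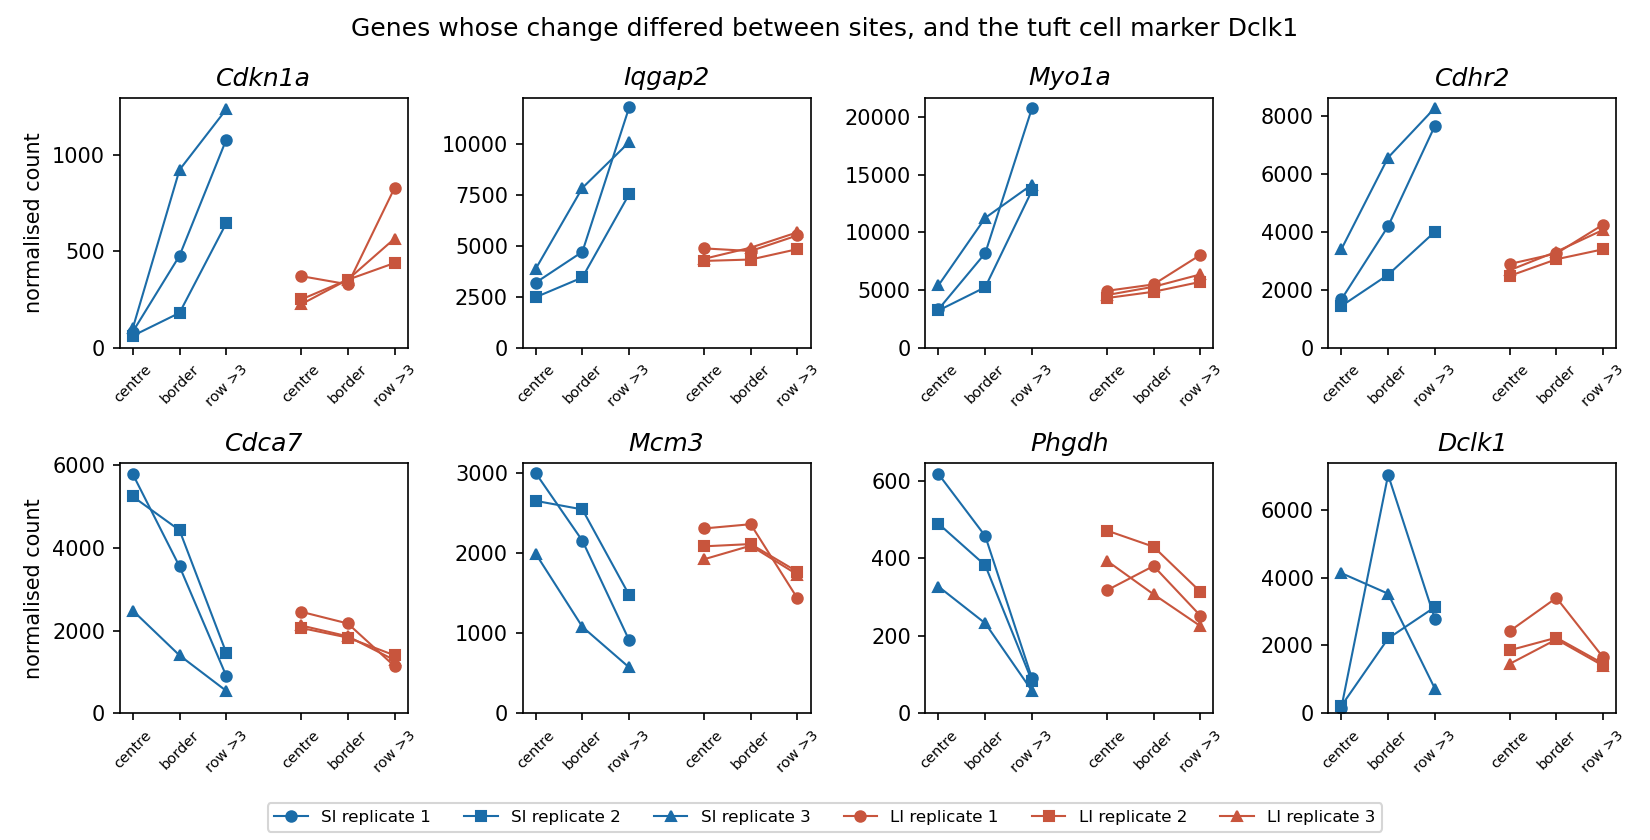
Normalised counts of 7 genes called for the difference between sites and of the tuft cell marker Dclk1 in each library, from centre through border to row >3 cells, with 1 line per replicate. Cdkn1a, Iqgap2, Myo1a and Cdhr2 climb in the 3 SI replicates, Cdca7, Mcm3 and Phgdh descend there, and Dclk1 runs opposite in SI replicate 3.

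Enterocyte genes gave fewer calls. Of 29 absorptive genes 5 were called above 0, against 1.51% of all genes, *Vil1*, the fatty acid binding proteins *Fabp1* and *Fabp2*, the lipoprotein assembly factor *Mttp* and the triglyceride enzyme *Dgat2*, with a median of 1.82 in SI and 0.28 in LI cells, and 11 were called above 0 without SI replicate 3 (5.44% of all genes). *Mttp* had 722, 399.7 and 505 normalised counts in SI centre, 4705, 1397 and 2089 in SI row >3, 82.3, 86.7 and 84.2 in LI centre and 74.7, 59.2 and 49.98 in LI row >3 cells. Its LI groups did not overlap and lay lower in row >3 cells, a change that was not called (adjusted p = 0.900). *Krt20*, a keratin of mature surface cells, went from 835, 462 and 755 to 14969, 9301 and 7448 in the SI and from 619, 408 and 444 to 606, 664 and 918 in the LI. Its difference of 3.46 ± 0.73 was not called (adjusted p = 0.0517, and 0.0102 without SI replicate 3). Of 30 colonocyte genes 1 was called, below 0 (0.808% of all genes), the water channel gene *Aqp4*, which fell in both sites with a difference of -1.15 ± 0.28. The fit without SI replicate 3 called 9 colonocyte genes above 0 (5.44% of all genes) and 2 below (2.19%), and with it 16 had an unadjusted p under 0.05 and DESeq2 called 13. In both sites 5 genes of this list rose, against 1.2% of all genes, and 8 without SI replicate 3, against 3.1%. Among the 5 were the carbonic anhydrases *Car1* and *Car2*, the water channel gene *Aqp8* and the sulfate transporter *Slc26a2*. *Car1* was at 0, 6.45 and 1668 in SI centre libraries and 59.5, 215 and 38981 in SI row >3 cells, so its SI level came almost wholly from the libraries labelled replicate 3. *Car2* likewise was at 22.7, 10.1 and 4066 in SI centre libraries and 7.52, 41.9 and 10181 in SI row >3 libraries. The SI changes of *Car2* and *Aqp8* were 1.20 and 4.38. Without replicate 3 they were 0.46 ± 0.50 and 3.80 ± 5.87, and neither was called (edgeR adjusted p = 0.677 and 0.822).

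The calls for secretory genes are given with and without SI replicate 3, beside 1.51% and 5.44% of all genes called above 0 in these fits. Of 23 goblet and deep crypt secretory genes 2 were called above 0, where 1.51% of all genes were, the calpain gene *Capn9* and the chemokine gene *Ccl9*, and 17 were called without SI replicate 3. *Muc2*, the secreted mucin, had 7468, 15661 and 142535 normalised counts in SI centre libraries and 471405, 346114 and 353346 in row >3 cells, and 113049, 88044 and 134853 in LI centre and 266507, 166044 and 222227 in LI row >3 libraries. SI centre replicate 3 was near the LI level, and the other SI centre libraries were far below it. The difference was 2.81 ± 1.05 and was not called (adjusted p = 0.266), while without SI replicate 3 it was 4.16 ± 0.59 (adjusted p = 0.00848). Of 30 tuft cell genes 0 were called for the difference by edgeR (2 at an unadjusted p under 0.05, and 1 by DESeq2) and 24 were called above 0 without SI replicate 3. Within replicates, the median change of the list was 3.30 and 3.59 in SI replicates 1 and 2, -1.82 in SI replicate 3, and -0.48, -0.24 and -0.09 in the LI. *Dclk1*, the tuft cell marker, had 167, 215 and 4136 in SI centre, 2787, 3132 and 727 in SI row >3, 2423, 1858 and 1456 in LI centre and 1648, 1463 and 1400.4 in LI row >3 cells. It was higher in row >3 cells of SI replicates 1 and 2 and lower in the other 4 pairs. For the 30 enteroendocrine genes, 2 were called above 0 (1.51% of all genes), the transcription factor gene *Neurod1* and the hormone gene *Pyy*, with a median of 2.46 in SI and 0.11 in LI cells, and 5 without SI replicate 3. In bulk samples such as these, fewer cells of a type and less RNA per cell cannot be told apart.

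**Figure D4:**
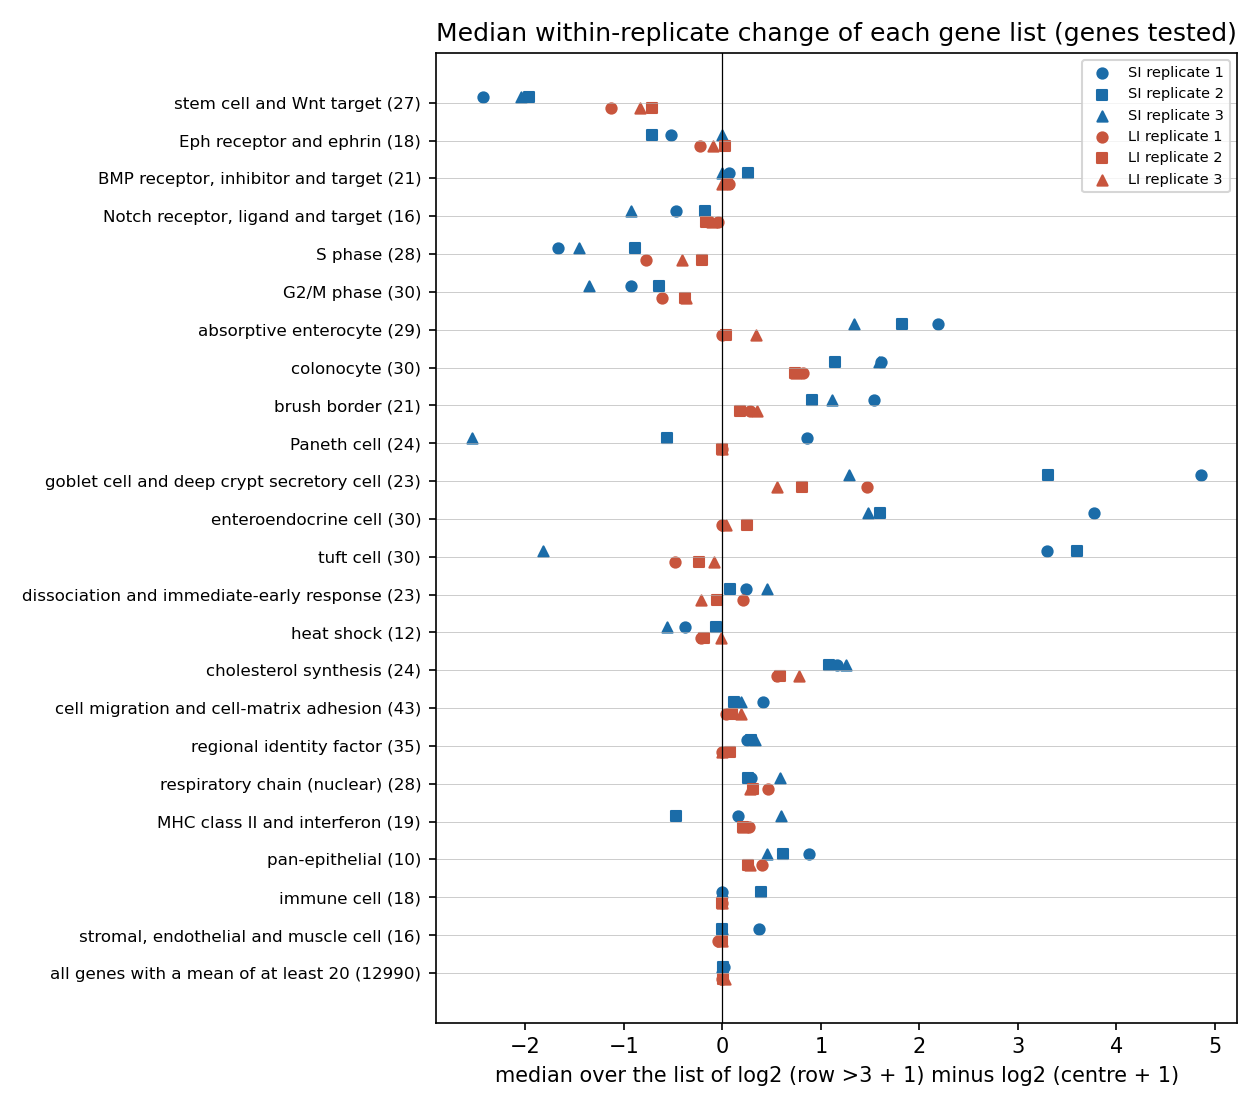
Median over each gene list of the change from centre to row >3 within each replicate (log2 of the normalised count + 1), with the number of genes tested in brackets. The 3 SI pairs lie beyond the 3 LI pairs for stem cell, S phase, brush border and absorptive genes, while the tuft and Paneth cell lists split by SI replicate.

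Eph receptors and their ephrin ligands sort cells along the crypt. The counts of this paragraph stand beside 1.51% of all genes called above 0 and 0.808% below, or 5.44% and 2.19% without SI replicate 3, and beside 1.2% shared in each direction. Of 18 such genes 1 was called, the ligand gene *Efnb2*, which rose by 2.66 ± 0.24 in SI and 1.26 ± 0.22 in LI cells, a difference of 1.39 ± 0.32 (adjusted p = 0.0329). With SI replicate 3 left out, 1 gene was called above and 4 below 0, among them *Ephb3* (adjusted p = 0.0298). *Efnb1* rose and *Epha4* and *Ephb3* fell in both sites, and *Ephb3*, the receptor of the crypt base, changed by -2.31 ± 0.20 and -1.46 ± 0.19. Of 43 genes of migration and matrix adhesion 3 were called, the integrin subunits *Itgb4* and *Itgb5* above 0 (0.71 ± 0.18 and 1.24 ± 0.30) and the RAC1 exchange factor *Tiam1* below 0 (-0.92 ± 0.19), and 9 above and 4 below 0 without SI replicate 3. *Itgb5* differed by 0.89 ± 0.31 in that fit and was not called (edgeR adjusted p = 0.111). The median log2 change of the list was 0.33 in SI and 0.16 in LI cells. Of 16 Notch pathway genes 1 was called below 0, *Notch2* (-0.97 ± 0.23), and 4 fell in both sites, *Notch1*, *Notch2*, *Notch3* and the target *Hes1*. Of the same 16 genes 3 were called above 0 and 3 below without SI replicate 3.

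Markers of other cells moved in part with the site difference. Of 18 immune genes tested 1 was called above 0, against 1.51% of all genes, *Itgam*, an integrin of myeloid cells, which had 399, 311 and 163 normalised counts in SI centre, 1393, 1199 and 142 in SI row >3, 105, 54.7 and 58.9 in LI centre and 16.4, 33.4 and 34.9 in LI row >3 cells. The sum over the immune list was 581, 384 and 434.6 in SI centre libraries and 1631, 1424 and 202.9 in SI row >3 cells, against 172.7 to 383.4 and 84.7 to 165 in the LI. Of 16 stromal genes 1 was called, *Vim*, with 140.2, 129 and 3.12 in SI row >3 cells, and the sum over the stromal list was 118.3, 148.3 and 298.4 in SI centre libraries and 408.3, 330.9 and 359 in SI row >3 libraries, against 272.9, 216.5 and 179.1 in LI centre and 209.5, 198.9 and 198 in LI row >3 libraries. The stromal sum was higher in row >3 cells of all 3 SI pairs and of 1 LI pair. Of these lists 3 immune and 5 stromal genes reached a mean of 20 normalised counts, and Cd4 of T cells and Cdh5 of endothelium were at 0 in all 4 groups. The fit without SI replicate 3 called 2 immune genes and 1 stromal gene above 0, against 5.44% of all genes. Sums of 10 epithelial genes lay between 76370 and 186100. The part of these cells in the results was not tested.

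The changes that both sites share were next taken as genes called in both gradients with the same sign. They numbered 641, of which 320 rose (1.2% of genes tested) and 321 fell (1.2%), and 0 genes were called in both with opposite signs. They made up 92.6% of the genes called in the LI and 10.5% of those called in the SI. Of 51 genes called in the LI only, 44 had the same sign in the SI. Shared rising genes had a median log2 change of 1.30 in SI and 0.72 in LI cells, and falling genes of -1.51 and -0.83, with the larger change in the SI for 294 and 293 of them. The difference between the sites was called for 131 of the 641.

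This count also turns on the LI libraries and the block. Without the block 0 rising and 4 falling genes were shared, since 5 genes were called in the LI. Without LI replicate 1, 2 or 3 the shared genes numbered 21 and 9, 85 and 92, and 26 and 31, rising and falling in turn. Single LI centre libraries left out gave 39 and 52 (centre 1), 120 and 117 (centre 2) and 62 and 101 (centre 3). Single LI row >3 libraries left out gave 41 and 49 (row >3, 1), 227 and 239 (row >3, 2) and 114 and 85 (row >3, 3). Without the SI libraries of replicate 3 there were 811 (3.1%) and 670 (2.56%), which made 83.4% of the LI calls, and 18 genes had opposite signs. Without SI centre replicate 3 they were 584 and 467, and without SI row >3 replicate 3 they were 673 and 412. With library size as the only scaling they were 186 and 596, and on the 12 centre and row >3 libraries alone 155 and 117.

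The shared falling genes named by rule included crypt base genes, among them *Ascl2* and *Mex3a*. *Zbtb38*, a zinc finger protein that binds methylated DNA (chr9:96682770-96752831, minus strand), had 5211, 4972 and 4741 normalised counts in SI centre libraries and 1282, 1576 and 1071 in row >3 cells, and 6283, 5535 and 5222 in LI centre and 1856, 2946 and 2336 in LI row >3 libraries. Centre and row >3 libraries were apart in both sites. The log2 changes were -1.94 ± 0.15 and -1.25 ± 0.14, in SI and LI in turn here and below (adjusted p = 7.38e-08 and 1.87e-04), and the difference of -0.69 ± 0.20 was not called (95% interval -1.11 to -0.27). *Ascl2*, the transcription factor that sets stem cell fate with Wnt (chr7:142966829-142969264, minus strand), fell from 380.04, 269 and 212 to 25.3, 32.4 and 1.56 in the SI and from 234, 282 and 359.9 to 43.7, 81.99 and 60.4 in the LI, with log2 changes of -3.77 ± 0.34 and -2.20 ± 0.28. *Mex3a*, an RNA binding protein of crypt progenitors, changed by -2.90 ± 0.24 and -1.75 ± 0.22, and *Sesn3*, a brake on mTORC1, by -1.57 ± 0.17 and -1.31 ± 0.16, whose difference had an interval of -0.75 to 0.24. The potassium channel gene *Kcnq1* changed by -1.99 ± 0.13 and -1.01 ± 0.13 and was the only one of these 8 called for the difference (-0.99 ± 0.18, adjusted p = 0.0106), and its locus holds several overlapping transcripts. *Adamts16*, a secreted protease, changed by -4.56 and -3.54, and *Tenm4*, a teneurin, by -3.33 and -2.29. *Tenm4* had 67.3, 7.37 and 325 in SI centre libraries and 4.79, 7.90 and 20.3 in SI row >3 cells, so that it did not go down in SI replicate 2. *Tmem132c*, a membrane protein, fell in each SI pair, from 5.67, 11.1 and 209 to 0, 0 and 9.37 normalised counts. Its SI change was -4.61 with all replicates. Without replicate 3 it was -6.18 ± 2.31, a larger fall from few counts that was not called (edgeR adjusted p = 0.0636).

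The shared rising genes named by rule are also described one by one. *Slc4a7*, a sodium bicarbonate cotransporter (chr14:14702279-14799940, plus strand), had 1066, 1008 and 3336 normalised counts in SI centre libraries and 1727, 1563 and 9489.6 in row >3 cells, and 3503, 3869.7 and 4564 in LI centre and 7496, 7444 and 8849.6 in LI row >3 libraries. It rose by 0.97 ± 0.13 and 1.004 ± 0.127, with a difference of -0.04 ± 0.18 and an interval of -0.42 to 0.34. With SI replicate 3 left out the SI change was 0.67 and the difference -0.32 ± 0.13, not called (edgeR adjusted p = 0.183), and SI replicates 1 and 2 stayed below all LI libraries. *Aldoa*, a glycolytic aldolase, rose from 1660.3, 1662 and 3336 to 4852, 4858 and 8542 in the SI and from 3604, 3433 and 4274 to 8026, 6108 and 7079 in the LI, by 1.49 ± 0.12 and 0.91 ± 0.12. *Tgoln1*, a protein of the trans-Golgi network, rose by 1.82 ± 0.12 and 0.92 ± 0.11, a called difference of 0.90 ± 0.16 (adjusted p = 0.00906). The gasdermin gene *Gsdmc3*, one of several close copies that may share reads, rose by 4.19 and 2.45. *Ethe1*, which oxidises sulfide in mitochondria, rose by 2.79 and 1.31 and differed by 1.48 ± 0.28. For *Hao2*, a peroxisomal oxidase, SI replicates 1 and 2 had at most 1.84 normalised counts in centre and 49.2 and 71.1 in row >3 cells, against 1297 and 7666 in replicate 3. Its difference of 1.38 ± 0.31 was 4.46 ± 0.82 without replicate 3. The lipid enzyme gene *Fa2h* and the GPI anchor gene *Cwh43* were likewise low there, with SI changes of 2.52 and 3.82. Without replicate 3 these were 2.78 ± 1.43 and 6.60 ± 2.72 and were not called (edgeR adjusted p = 0.201 and 0.0964).

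**Figure D5:**
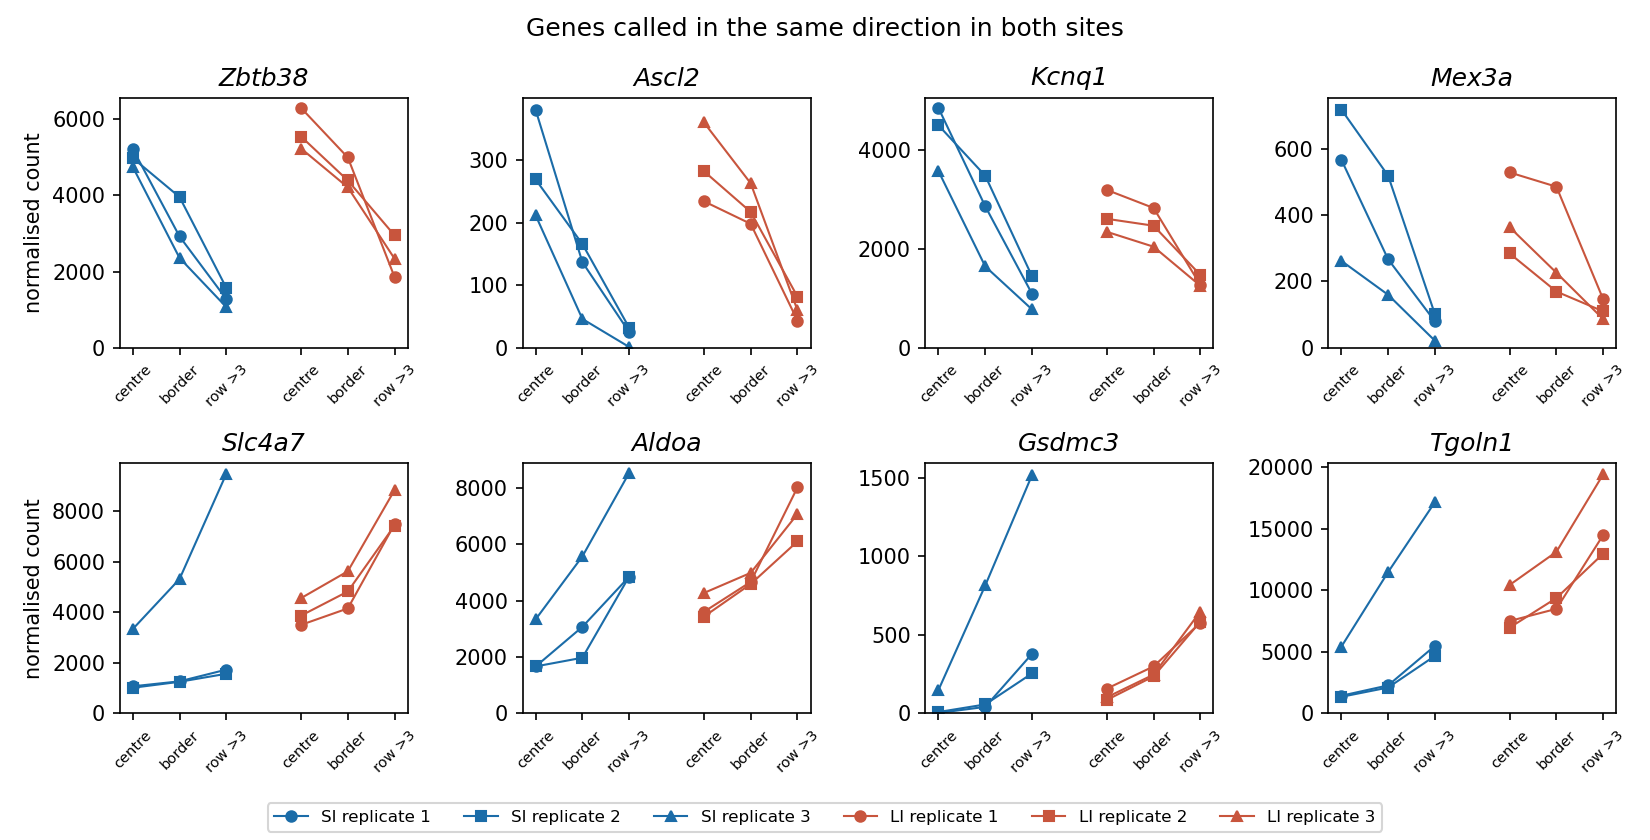
Normalised counts of 8 genes called in the same direction in both sites, in each library from centre through border to row >3 cells, with 1 line per replicate. The top row falls and the bottom row rises in all 6 pairs, and SI replicate 3 lies above SI replicates 1 and 2 for the genes of the bottom row.

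Cholesterol synthesis was the list with the largest share of shared rising genes. Of 24 genes 13 rose in both sites (1.2% of all genes), with a median of 1.23 in SI and 0.65 in LI cells, and 2 were called above 0 for the difference (1.51% of all genes), among them *Hmgcs1* (0.85 ± 0.22), an early enzyme of the pathway. *Msmo1*, a sterol demethylation enzyme, rose by 1.71 ± 0.16 and 1.06 ± 0.16 and *Srebf2*, the transcription factor of the pathway, by 0.67 ± 0.10 and 0.57 ± 0.10. Within replicates the list's median was 1.16, 1.08 and 1.26 in the SI and 0.56, 0.58 and 0.78 in the LI. Without SI replicate 3, 15 rose in both sites (3.1% of all genes) and 8 were called above 0 for the difference (5.44%).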

How the data were processed

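RNA of sorted Lgr5+ cells was sequenced on SMART-Seq stranded libraries. The authors demultiplexed with bcl2fastq, trimmed with Skewer, aligned to mm10 with STAR and deposited raw counts per gene, and beside them the counts divided by 1 DESeq2 size factor per library (unit: signal, here called normalised counts). Neither the gene annotation's release nor the counting strand is stated there.

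Raw counts of all 18 libraries were fitted with edgeR 4.0.16 in R 4.3.3 (TMM, mean count above 0, 26717 of 43346 genes, glmQLFit robust, glmQLFTest) with a level effect per site and a block for each replicate number of a site, which left 8 residual degrees of freedom. The contrast was the change from centre to row >3 in the SI minus that in the LI, and each gradient was tested in the same fit. The study used DESeq2, run here as version 1.42.0 among the alternatives. Other alternatives were no block, 12 libraries, other scalings, filters and thresholds, and each replicate or library left out. Values per library are normalised counts, and differences within a replicate are of log2(normalised count + 1). The block was set together with the comparison. Same-numbered libraries of a site correlated by over 0.1 in their deviations in all 6 pairs. SI replicates 1 and 2 did so across numbers as well (0.176 and 0.229), so these correlations do not establish the pairing.

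Genes named (predicted models left out) are, for the difference, the 12 per direction with the smallest adjusted p that had a mean of at least 20 normalised counts in a group of each site, more than 3 counts in each of the 4 groups and separate replicate pairs; for shared genes, the 8 per direction with the smallest larger adjusted p; and list genes called in either way, with 18 defining members. The comparison, the members and the lists were chosen with earlier results of these data known. Positions are from GENCODE M21 (42462 of 43346 identifiers matched) and promoter windows (250 bases before to 50 after a start) from RefSeq GRCm38.p6. Figures were drawn with matplotlib 3.10.9. Some genes counted in the totals are not reported here.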

Additional observations from a re-analysis of the deposited data

Results flagged for a closer look

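The change from centre to row >3 differed between SI and LI, by the test of the difference itself, for 620 genes and for 71 of the named ones. The values are log2 differences, SI minus LI, from edgeR's quasi-likelihood fit with the replicate block.

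Among the genes named for the difference, those above 0 were *Iqgap2* 1.39, *B3gnt3* 1.30, *Duox2* 1.40, *Cdkn1a* 2.51, *Dpysl3* 4.11, *Mal* 2.96, *Gfra3* 4.85, *Dock8* 1.74, *Sec14l2* 2.70, *Mxd1* 1.85, *Slc35a2* 1.46 and *Crip1* 1.25. Those below 0 were *Flna* -1.73, *Phgdh* -2.06, *Fyn* -2.67, *Cdca7* -1.46, *Tubb5* -0.98, *Afap1l1* -2.20, *Fads1* -1.44, *Hmga1* -1.12, *Kif12* -2.48, *Hmgn1* -1.06, *Hmga2* -1.50 and *Gas7* -1.51. *Mal* had nearly all of its SI counts in the libraries labelled SI replicate 3.

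Among list genes and genes named as shared, those above 0 were *Hao2* 1.38, *Tgoln1* 0.90, *Fa2h* 1.29, *Ethe1* 1.48, *Fabp1* 4.29, *Efnb2* 1.39, *Vil1* 0.89, *Vim* 5.12, *Neurod1* 2.54, *Fabp2* 1.13, *Mttp* 2.70, *Espn* 1.64, *Tbx3* 1.48, *Hoxa9* 1.46, *Actn4* 0.65, *Dgat2* 2.05, *Itgam* 2.74, *Myo1a* 1.52, *Klf2* 2.83, *Capn9* 2.43, *Tmigd1* 3.39, *Myo1d* 0.63, *Ccl9* 1.39, *Pyy* 4.04, *Slc9a3r1* 1.08, *Myo15b* 1.69, *Itgb4* 0.71, *Cdhr2* 1.11, *Hmgcs1* 0.85, *Plec* 1.07, *Itgb5* 1.24 and *Ezr* 0.78. Those below 0 were *Kcnq1* -0.99, *Mcm3* -1.09, *Pola1* -0.99, *Notch2* -0.97, *Cdk6* -1.19, *Tyms* -0.93, *Slbp* -0.70, *Mcm7* -0.92, *Mcm2* -0.87, *Rrm1* -0.88, *Tcf7* -1.33, *Rnf43* -1.19, *Cdc6* -1.27, *Tiam1* -0.92 and *Aqp4* -1.15. *Hoxa9*, *Fa2h* and *Hao2* were near 0 in centre cells of SI replicates 1 and 2. *Vim* and *Pyy* each had 0, 15.7 and 0 normalised counts in SI centre cells. Without SI replicate 3 the difference was 4.46 for *Hao2* and 3.67 for *Capn9*. In that fit *Hoxa9*, *Fa2h* and *Itgb5* differed by 1.98 ± 2.08, 1.57 ± 1.53 and 0.89 ± 0.31 and were not called by edgeR (adjusted p = 0.848, 0.809 and 0.111). With 3 libraries a group, no test for single outlying libraries was run within groups, and counts with single libraries left out are given above.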

How the results depend on the processing

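Counts are given in the order difference between sites in all, above 0, below 0, shared rising and shared falling, against 620, 404, 216, 320 and 321. Without the replicate block, that is unpaired, they were 0, 0, 0, 0 and 4. On the 12 centre and row >3 libraries alone they were 132, 93, 39, 155 and 117, with DESeq2 1477, 916, 561, 699 and 624, with the legacy quasi-likelihood fit 1014, 614, 400, 526 and 468, with filterByExpr 981, 659, 322, 441 and 532, and with no filter 388, 253, 135, 219 and 219. With a log2 estimate over 1 they were 377, 272, 105, 80 and 118, with the cutoffs of the study's plots (p under 0.001, log2 over 2) 94, 71, 23, 12 and 20, and with the SI libraries of replicate 3 left out and no block 857, 674, 183, 219 and 200. Library size as the only scaling gave 620, 340, 280, 186 and 596, and RLE factors 620, 405, 215, 332 and 326. With a replicate of a site or a single library left out, the counts ran from 7 to 1997, 3 to 1424, 4 to 573, 21 to 811 and 9 to 670. The cause of these shifts was not tested, apart from the fewer libraries or genes that a setting itself brings. For the genes named for the difference or as shared, 1414 values under an alternative kept their side of the threshold and direction, 98 no longer passed, and 0 turned direction. *Olfm4* and *Lyz1* had few or no counts in the LI at this depth, so their change there could not be measured.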

Other observations

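Other lists are given by their calls for the difference between the sites, beside 1.51% of all genes above 0 and 0.808% below (5.44% and 2.19% without SI replicate 3), and by their shared calls, beside 1.2% of all genes in each direction (3.1% rising without SI replicate 3). Of 28 nuclear genes of the respiratory chain 6 rose in both sites and 0 were called for the difference (edgeR, also 0 at an unadjusted p under 0.05 and 0 by DESeq2), with a median log2 change of 0.37 in each site. The carriers of electrons *Cycs* and *Cyc1* rose by 0.84 ± 0.12 and 0.54 ± 0.12 in the SI and by 0.56 ± 0.12 and 0.53 ± 0.12 in the LI. Without SI replicate 3 the same list had 0 calls for the difference and 8 shared rising genes. The class I antigen genes *H2-K1* and *H2-D1* rose in both sites, by 0.71 and 0.80 in the SI and 0.49 and 0.46 in the LI, and 0 of 19 genes of antigen presentation and interferon were called for the difference (5 at an unadjusted p under 0.05, and 3 by DESeq2; without SI replicate 3 1 was called below 0).

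Of 35 regional identity factors 2 were called above 0, *Tbx3* (1.48 ± 0.35), a T-box factor, and *Hoxa9* (1.46 ± 0.33), a posterior homeobox gene that had 0.810, 0 and 272 normalised counts in SI centre cells, nearly all of them in the library labelled replicate 3. In the fit without SI replicate 3, 6 regional factors were called above 0. *Klf4*, a factor of differentiated cells, rose in both sites by 2.36 ± 0.21 and 1.30 ± 0.20. Of 23 genes of the immediate-early and dissociation response 1 was called, *Klf2* (2.83 ± 0.55), while DESeq2 called 6 and the fit without SI replicate 3 called 4 above and 1 below 0, and of 12 heat shock, 21 BMP pathway and 24 Paneth cell genes 0 were (6, 4 and 3 at an unadjusted p under 0.05, and 2 in each list by DESeq2). With SI replicate 3 left out, 1 heat shock gene, 5 BMP pathway genes and 1 Paneth cell gene were called, all above 0. Within replicates, the Paneth list had a median of 0.86, -0.56 and -2.54 in the SI.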
